A study of Mus musculus with 12 samples.

Results

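The cytosolic ribosome of bone marrow derived macrophages was followed through the mRNA levels of its protein genes. These genes were picked by symbol, as names of the form Rpl or Rps with a number, together with Rplp0, Rplp1, Rplp2 and Rpsa, leaving out names of pseudogenes and of the S6 kinases. Of 84 names that match among 24062 gene entries, 78 had values above 10 normalised counts in 3 or more of 12 libraries. They comprise 42 genes of the large subunit, 33 of the small subunit and the 3 genes of the P-stalk, and they lie on 19 chromosomes, 14 of them on chromosome 7 and 4 on the X chromosome. The naming rule uses no measured change, but the filter on low values did use levels. The family itself was chosen with earlier results of these data known. The 6 names left out are taken up below.

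The cells were primary macrophages of C57Bl/6 mice with a wild-type genotype, labelled passage 1. They had received C-178 together with CMA, CMA alone, C-178 alone or no stimulation, with 3 libraries in each of the 4 groups. The treatment time was 2 h for the treated libraries, and the labels give none for the unstimulated ones. CMA is a small-molecule agonist of mouse STING, the adaptor that relays the sensing of cytosolic DNA, and C-178 is a covalent STING inhibitor, so the design crosses agonist and inhibitor. The labels number the treated libraries 1 to 3, and the unstimulated ones go by 1, a and b because a pair of columns share a heading. Nothing in the labels says whether the libraries of a group came from separate mice or cultures, so p values measure the spread between these libraries, which may be technical.

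Each eukaryotic ribosome is built from a small subunit that decodes the mRNA and a large subunit that joins amino acids, and most of their proteins are present as a single copy per particle. The P-stalk proteins recruit elongation factors to the large subunit. Mammalian ribosomal protein mRNAs are abundant and short and begin with a run of pyrimidines, the TOP element, through which their translation is tied to mTORC1. That control acts largely on translation, which mRNA levels do not show. The genes have many processed pseudogenes, and reads from such copies can be hard to place.

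Depth and labels were looked at first. Reads recovered from the table reached 36.438, 8.813 and 7.766 M in C-178+CMA libraries 1, 2 and 3 and 7.126 to 7.826 M in CMA libraries. C-178 libraries held 28.476, 7.145 and 7.049 M, and unstimulated libraries 13.907 to 17.449 M. Of 24 macrophage markers, 23 exceeded 100 normalised counts in each treated group and 24 did so without stimulation, with group medians of 12700 to 15800. The extraction protocol, however, names embryonic fibroblast populations. The 15 fibroblast markers summed to 1190 to 2920 normalised counts with C-178+CMA, 2400 to 4220 with CMA, 2340 to 2710 with C-178 and 1900 to 2070 without stimulation, and Lum was listed at 0 in every library outside the C-178 group. The 12 neutrophil markers summed to 1050 to 1590 over all groups and the 11 lymphoid markers to 703 to 1120, with Ms4a1 and Nkg7 listed at 0 in the CMA libraries. The macrophage markers summed to at least 753000 in every library. Their part in the results below was not tested. In bulk RNA, fewer cells of a type and less RNA per cell cannot be told apart.

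Promoter windows show what the members share at the DNA level. The set of RefSeq promoters used here held 58 of the 78 genes, 50 with 1 annotated start and 8 with more, of which the first listed was taken. Rps29, Rplp1 and Rpl36 are among the genes it did not hold, so the motif shares below leave them out. In the windows printed here, 40 bases before to 29 bases from the annotated start on, in build GRCm38.p6, capitals mark a run of at least 7 C or T bases that begins with C within 20 bases before the start or after it, the letters CCGGAA or the letters GGGCGG (the letter motifs on either strand). Rpl9 and Rps3a1 are shown as members that differed between groups. The others were picked from the members with the largest and smallest gaps of library 1 of C-178+CMA, described below. Rpl37a and Rpl22l1, whose gaps were larger than that of Rps10, are not shown.
Rpl9 (chr5:65391403-65391471, minus strand): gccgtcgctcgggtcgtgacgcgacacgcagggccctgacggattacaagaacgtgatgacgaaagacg
Rps3a1 (chr3:86142640-86142708, minus strand): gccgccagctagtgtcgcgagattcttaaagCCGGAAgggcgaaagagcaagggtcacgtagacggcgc
Rps10 (chr17:27635216-27635284, minus strand): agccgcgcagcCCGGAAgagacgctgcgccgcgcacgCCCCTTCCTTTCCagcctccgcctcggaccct
Rpl39 (chrX:37085194-37085262, minus strand): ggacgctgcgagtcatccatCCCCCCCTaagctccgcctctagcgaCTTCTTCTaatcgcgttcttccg
Rpl23 (chr11:97782411-97782479, minus strand): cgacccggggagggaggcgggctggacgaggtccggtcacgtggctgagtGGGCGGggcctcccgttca
Rps6 (chr4:86857339-86857407, minus strand): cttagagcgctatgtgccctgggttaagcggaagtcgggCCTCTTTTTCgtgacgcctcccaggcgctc
Rpl28 (chr7:4792925-4792993, plus strand): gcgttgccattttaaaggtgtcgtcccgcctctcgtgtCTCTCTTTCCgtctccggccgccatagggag

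Rps10, Rps6 and Rpl28 carry a pyrimidine run over or beside the annotated start, Rpl39 carries 2 such runs, and the windows of Rpl9, Rps3a1 and Rpl23 hold none. Searched from 20 bases before to 50 bases after the start, such a run was found in 44 of the 58 members (75.9%). It was found in 27.7% of the 8728 tested genes in the same set of RefSeq promoters. A C at the start itself followed by 4 C or T bases was found in 12 members (20.7%), against 2.23% of all those genes. Over 250 bases before to 50 after the start and on both strands, CCGGAA (the core that ETS factors bind) was present in 51.7% of members and 30.1% of all, AAGATGG (a YY1 core) in 15.5% and 7.75%, TATAA in 27.6% and 12.7%, and GGGCGG (an Sp1 core) in 62.1% and 65.4%. TGACGTCA, the cyclic AMP response element, was in 6.9% of members and 3.37% of all. Motifs overlap in places, and a match is a description of the letters only. Members with and without a pyrimidine run had median log2 changes of 0.48 and 0.59 between C-178+CMA and C-178.

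Levels are compared between genes per kb of transcript. Without stimulation the median member stood at 2290 normalised counts per kb, over a range of 28.6 to 11200. Rplp1, which pairs with Rplp2 on the P-stalk, led with 11200 ± 753 per kb, before Rps29, a zinc-binding protein of the small subunit head, with 9230 ± 3050 and Rpl23, which faces the small subunit, with 8450 ± 1650 (SD, n = 3 each). The lead of Rplp1 over Rps29 was smaller than the SD of Rps29. At the low end stood Rps4l with 28.6 ± 6.42, Rps27 with 33.7 ± 4.57 and Rpl22l1, the paralog of Rpl22, with 102 ± 27.9 normalised counts per kb (SD, n = 3 each). Rps4l and Rps27 differed by less than the SD of Rps4l, while Rpl22l1 lay above both by more than its SD. Rplp0, the stalk base, had 4030 ± 56.9 and Rplp2 4700 ± 259 normalised counts per kb.

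**Figure D1:**
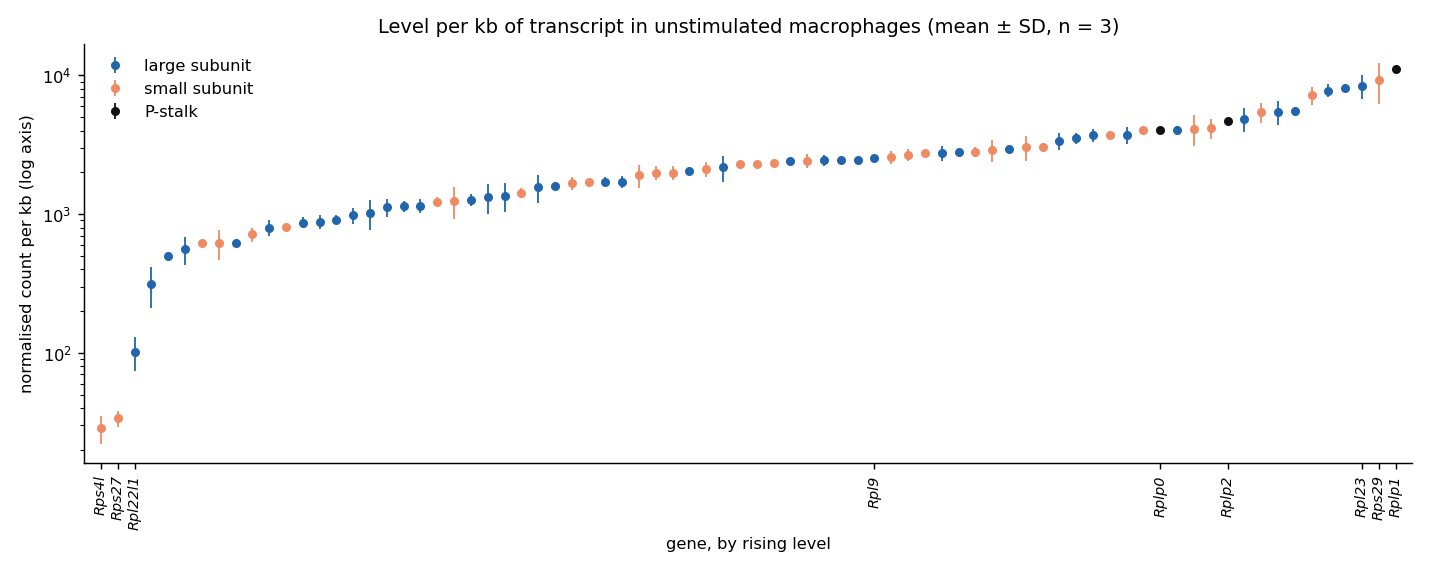
Mean level per kb of transcript in the 3 unstimulated libraries (normalised counts per kb, log axis, bars are SD) for the 78 genes in order of level, coloured by subunit, with the names of 9 genes described in the text. Rps4l, Rps27 and Rpl22l1 form a low tail at 28.6, 33.7 and 102, and Rplp1 is at the top with 11200.

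Several levels depend on how reads of near-identical copies were counted, which the sources used here do not state. In GENCODE M21, 74 of the 78 members have at least 1 pseudogene that matches their transcript over 100 bases or more at 95% identity or more, with a median of 5 and up to 60 for Rpl21. Rps4l is itself annotated as a transcribed processed pseudogene. Rps27, a core small-subunit protein, had only 3.06 to 17.8 normalised counts in the 12 libraries. Of the 6 names below the filter, Rpl26 was listed at 0 in all libraries, Rpl30 ranged from 0 to 5.3 and Rpl34 from 0 to 10.3 normalised counts. These 3 encode core large-subunit proteins and have 6, 12 and 5 pseudogene copies. An entry at or near 0 does not show that the mRNA was absent, and the part of the copies was not tested. The other 3 are tissue-restricted paralogs, with Rpl3l at 0 to 3.67, Rpl10l at 0 to 1.97 and Rpl39l at 0 to 14.3 normalised counts. Across the 78 members the number of copies ran with the level per kb at a Spearman coefficient of -0.03.

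Library 1 of C-178+CMA stood apart from the other 11 in these genes. Its members lay a median of 0.67 log2 units above their unstimulated mean, against -0.01 and 0.21 in libraries 2 and 3 of the same group. Medians were 0.17, -0.08 and 0.01 in CMA libraries 1 to 3, -0.10, -0.42 and -0.06 in C-178 libraries 1 to 3, and -0.12 to 0.06 without stimulation. In that library 52 of 78 members were above the unstimulated mean by over 0.5 log2 units and 3 were below it by as much, against 21.3% and 18.7% of all tested genes. In C-178 library 2, 31 members were lower than the unstimulated mean by over 0.5, against 9.78% of all genes. The median over all tested genes was between -0.01 and 0.01 in every library. As shares of the reads, the 78 members took 1.99%, 1.38% and 1.68% with C-178+CMA, 1.49%, 1.15% and 1.25% with CMA, 1.45%, 1.2% and 1.59% with C-178, and 1.51%, 1.64% and 1.66% without stimulation. A share and a normalised count are different scales here, since the normalised totals of the CMA libraries were 12.899 to 14.064 M, against 10.229 to 10.573 M without stimulation.

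**Figure D2:**
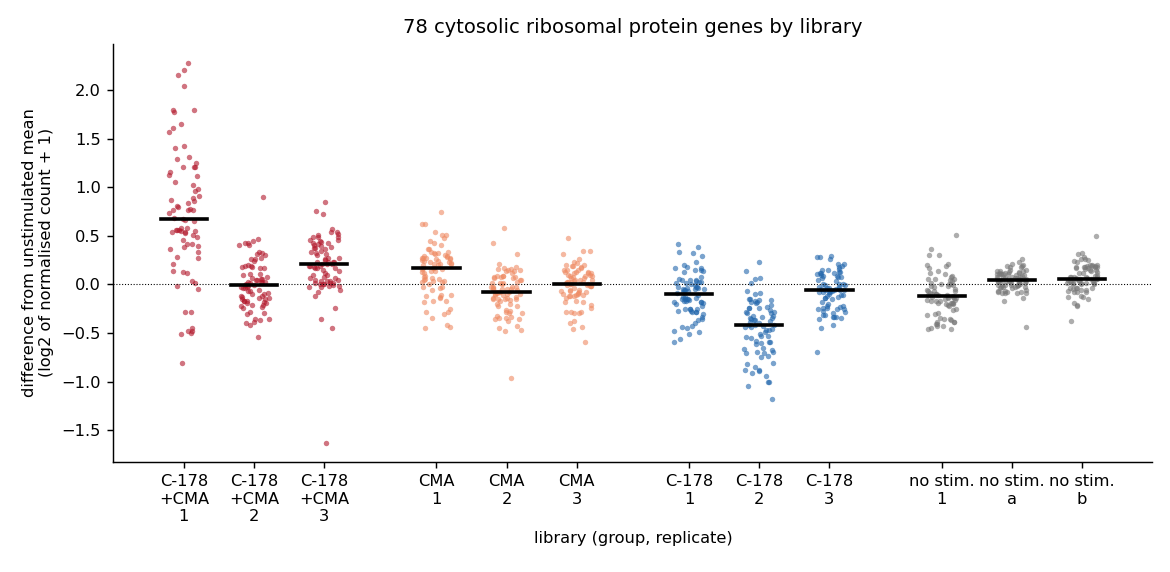
Difference of each of the 78 genes from its unstimulated mean (log2 of normalised count + 1) in each library, with C-178+CMA, CMA, C-178 and no stimulation from left to right and a bar at the median. Library 1 of C-178+CMA has the highest median (0.67) and C-178 library 2 the lowest (-0.42).

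The gap between library 1 and the mean of libraries 2 and 3 of C-178+CMA was a median of 0.52 over the members and 0.04 over all tested genes. It was over 1 log2 unit for 21 of 78 members (26.9%), against 3.92% of all genes. Rpl39, which lines the exit tunnel for the growing chain, had 900.2, 161.4 and 155.9 normalised counts in C-178+CMA libraries 1 to 3, against 91.8 to 209 with C-178. Rpl37a, of the large subunit, had 2568, 432.7 and 533.3 with C-178+CMA, against 287.6 to 726.5 with C-178. Rps10, of the small subunit head, had 1262, 251.3 and 400.3 with C-178+CMA, against 198.7 to 276.1 with C-178. In each of these 3 genes library 1 alone was high and the other libraries of the group lay near or within the other groups. The gap was positive for 63 members (80.8%), against 53.6% of all tested genes. It was below -0.5 for 3 of 78 members, against 1266 of 11440 tested genes, so members lay that low less often than genes in general. Rpl23 had 5048, 11680 and 10070 with C-178+CMA, and Rps6, the S6 kinase substrate, had 2290, 3714 and 4333, while Rpl28 had 2235, 3358 and 3537. In these 3 genes library 1 was the lowest of the group.

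The most variable members within groups were Rpl39, Rpl37a, Rpl22l1, Rps10 and Rpl15, with pooled SDs of 0.814, 0.802, 0.797, 0.621 and 0.573 on the log2 scale. Among members above 1000 normalised counts the steadiest were Rpl4 (0.094), Rps7 (0.111), Rplp0 (0.117), Rpl21 (0.133) and Rpl12 (0.15), and the median member had a pooled SD of 0.284. Rpl4, which reaches into the exit tunnel, had 8727, 8340 and 9114 with C-178+CMA, 9950, 8232 and 8651 with CMA, 7499, 7596 and 8199 with C-178 and 8007, 8864 and 8709 without stimulation. Its C-178+CMA values were all above those with C-178, yet its log2 change of 0.17 ± 0.11 (SE) was not called (limma, Benjamini-Hochberg adjusted p = 0.292).

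Across the 78 genes, the gap of library 1 in C-178+CMA ran with that of library 1 in C-178 at a Pearson coefficient of 0.54 and a Spearman coefficient of 0.51, and at 0.45 and 0.49 across all tested genes. Both were the deepest libraries of their groups. Library 1 of CMA was also the deepest of its group, by less, and its gap ran against that of C-178+CMA at -0.40 (Spearman -0.35). For unstimulated library 1, not the deepest, these were -0.31 and -0.34. The gap of library 1 in C-178+CMA ran against the mean level at a Spearman coefficient of -0.62 over the members and -0.18 over all genes. With the number of pseudogene copies the Spearman coefficient of that gap was -0.08. Genes of a library share its depth and preparation and are not independent, so these are descriptions.

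**Figure D3:**
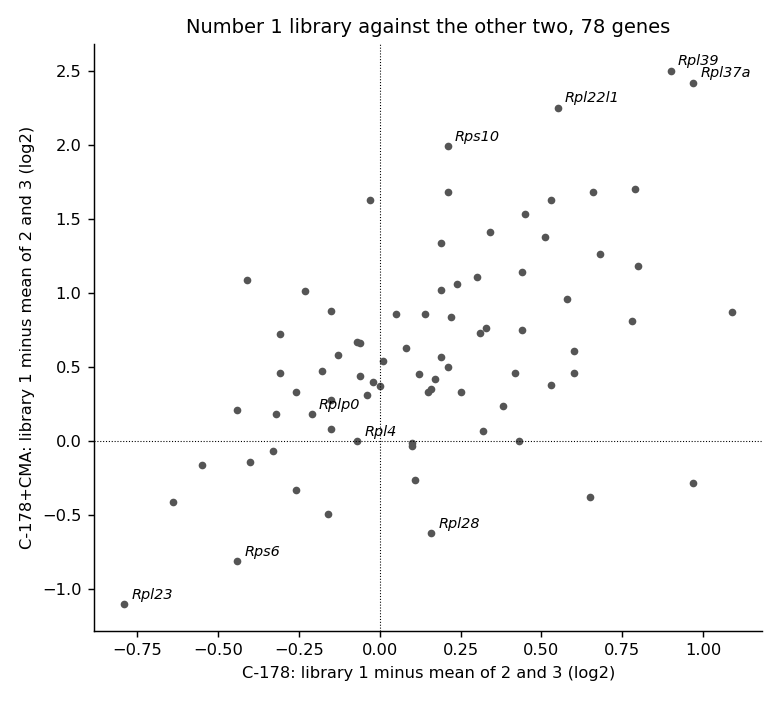
For each of the 78 genes, log2 value of library 1 minus the mean of libraries 2 and 3, in C-178+CMA (vertical) and in C-178 (horizontal). Rpl39, Rpl37a, Rpl22l1 and Rps10 lead on the vertical axis with 2.50, 2.42, 2.25 and 1.99, and Rpl23, Rps6 and Rpl28 are lowest with -1.10, -0.81 and -0.62.

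C-178+CMA against C-178 gave what CMA did in the presence of the inhibitor, and it was the comparison with the most called members of the 6. Of 78 members, 24 rose and 0 fell, where 13.5% of all tested genes rose and 12.6% fell. The 24 members are 30.8% of the family. They comprise 10 of 42 large-subunit, 12 of 33 small-subunit and 2 of 3 P-stalk genes. The median log2 change was 0.51 over the members (73 positive) and 0.01 over all genes. With unadjusted p under 0.05 there were 48 higher and 0 lower. The share of all tested genes under that cut was not taken, so this count has no background beside it. Groups did not overlap for 22 members in the higher direction and 1 in the lower, against 16.8% and 17.2% of all genes.

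Rps29 had 6214, 6466 and 6266 normalised counts in C-178+CMA libraries 1 to 3, against 2813, 2173 and 3186 with C-178. The groups did not overlap, and library 1 did not stand out. The means were 6315 ± 132.8 and 2724 ± 512.7 (SD, n = 3 each), a log2 change of 1.23 ± 0.19 (SE, limma, Benjamini-Hochberg adjusted p = 0.000361). The gene lies on chromosome 12 at 69157722 to 69159186 in mm10.

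Rpl9, a large-subunit protein near the factor-binding site, had 3359, 2357 and 2860 normalised counts with C-178+CMA, against 1506, 1248 and 1818 with C-178. The groups did not overlap. The log2 change was 0.91 ± 0.15 (SE, limma, adjusted p = 0.000571). Rpl9 lies on chromosome 5 at 65388364 to 65391444 and has 11 pseudogene copies by the match above.

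Rpl36, on chromosome 17, had 1068, 809.6 and 887.7 with C-178+CMA, against 522.8, 328.2 and 587 with C-178, with no overlap. Its log2 change was 0.98 ± 0.20 (SE, limma, adjusted p = 0.00308). Rplp0 had 8214, 6804 and 7681 with C-178+CMA, against 4588, 4910 and 5718 with C-178, again with no overlap. Its log2 change was 0.58 ± 0.12 (SE, limma, adjusted p = 0.00307). Its stalk partner Rplp1 had 8259, 5720 and 7029 with C-178+CMA, against 5366, 2984 and 4632 with C-178, a log2 change of 0.72 ± 0.19 (SE, limma, adjusted p = 0.0149). Rplp2 had 3107, 2059 and 2457, against 1624, 1483 and 2293 with C-178, and was not called (log2 change 0.50 ± 0.21, adjusted p = 0.0874). The 2 called stalk genes were above every C-178 library in all C-178+CMA libraries, while Rplp2 overlapped. The call of Rplp1 was lost without library 1 of C-178+CMA, without C-178 library 2, under quantile normalisation and in the fit of these 2 groups alone (log2 change 0.38 at the lowest).

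Of the small-subunit genes, Rps16, whose tail reaches the tRNA site, had 1430, 1198 and 900 normalised counts with C-178+CMA, against 801.4, 495.4 and 725 with C-178 (log2 change 0.81, limma adjusted p = 0.00865). Rps3a1 had 2737, 1725 and 1808, against 1339, 1098 and 1456 with C-178 (log2 change 0.66, adjusted p = 0.0103). Rps27a, made as a fusion with ubiquitin, had 4130, 2048 and 2026, against 1628, 1177 and 1733 with C-178 (log2 change 0.79, adjusted p = 0.025). In Rps3a1 and Rps27a library 1 was far above libraries 2 and 3, which still lay above all C-178 libraries. Without C-178 library 2 neither was called, and Rps27a was not called without library 1 of C-178+CMA either. Rps21 had 2080, 928.1 and 1154, against 665.9, 611.3 and 996.8 with C-178, so the groups overlapped, at a log2 change of 0.82 (adjusted p = 0.0257). Its call was lost under 6 alternatives, among them those without library 1 of C-178+CMA, C-178 library 1 or C-178 library 2 (log2 change 0.41 at the lowest). Rpsa, the protein first known as a laminin receptor, had 4263, 1999 and 2760, against 1966, 1503 and 2105 with C-178, also with overlap (log2 change 0.64, adjusted p = 0.044).

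Of the large-subunit genes, Rpl27 had 806.7, 344.1 and 414.1 normalised counts with C-178+CMA, against 218.7, 286.1 and 297.9 with C-178 (log2 change 0.87, limma adjusted p = 0.0201). Rpl18 had 2290, 682.5 and 1080, against 725, 487.8 and 669.8 with C-178 (log2 change 0.94, adjusted p = 0.0411). Rpl27 was not called without C-178 library 1. The groups overlapped for Rpl18, whose call was lost under 14 of 25 alternatives, among them that without library 1 of C-178+CMA. Others called were Rpl29, Rps20, Rps24, Rpl21, Rpl32, Rpl37, Rps23, Rps3, Rps15a, Rpl8 and Rpl24, with log2 changes of 0.45 to 0.65. The only non-overlapping member in the lower direction was Rps27, with 9.28, 8.57 and 3.06 against 9.32, 12.1 and 11.6 with C-178. These are low counts, and Rps27 was not called (log2 change -0.70 ± 0.43, limma adjusted p = 0.245). Rpl3, at the peptidyl transferase centre, and Rpl7 were not called, with log2 changes of 0.31 ± 0.17 and 0.36 ± 0.15, nor was Rps6 at 0.07 ± 0.21 (SE).

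The count of called members depended on single libraries and on the fit. Without library 1 of C-178+CMA 13 members rose (16.7%, against 12.1% of all tested genes), 12 of them among the 24, and the median change was 0.32. Without C-178 library 2 the count was 7 (8.97%, against 9.23% of all), and without both number 1 libraries it was 10 (12.8%, against 1253 of all 11440 genes). In a fit of these 2 groups alone 3 rose (3.85%, against 6.45%). After removal of each library's trend on transcript length and GC content 6 rose (7.69%, against 14.6%) and 1 fell, with a median of 0.21. In these last 4 fits the share of members called higher was thus near or below that of all genes. Without C-178+CMA library 2 it was 53 (67.9%, against 18.5%). In a fit with the library number as a block over the 9 treated libraries, 29 rose (37.2%, against 12.2%), 22 of them among the 24. The labels do not say what equal numbers share, and both number 1 libraries were also the deepest of their groups. Members are short, with a median transcript of 751 bases against 2790 over tested genes. Rps29, Rpl9 and Rpl36 were called under all 25 alternatives, with adjusted p of at most 0.0298.

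**Figure D4:**
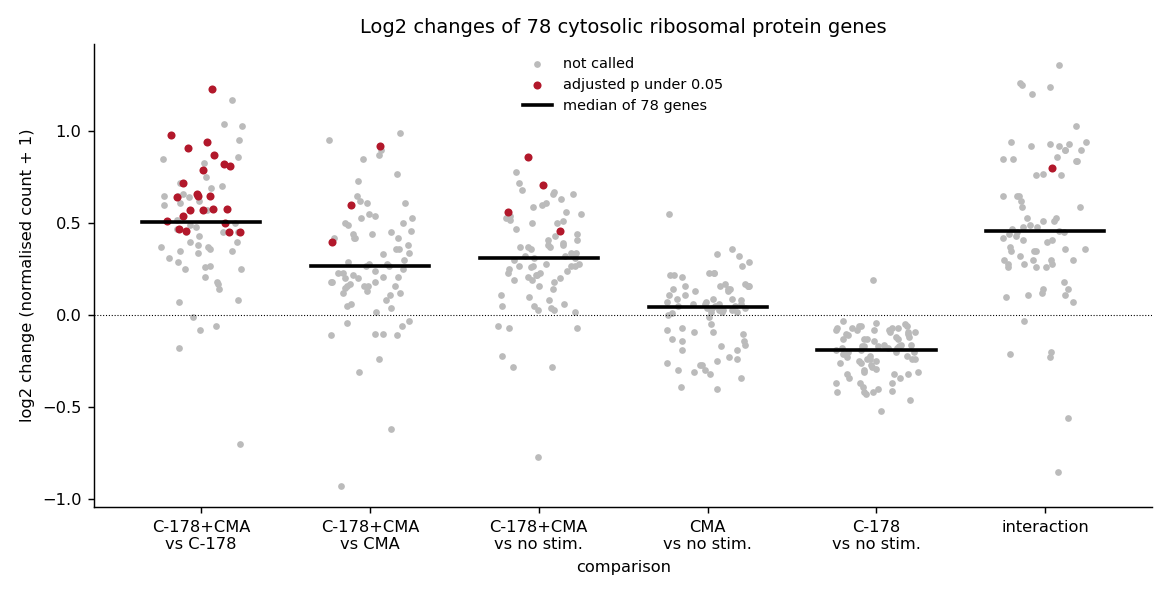
Log2 change of each of the 78 genes in the 5 comparisons of groups and in the interaction of C-178 and CMA, with called genes (limma, adjusted p under 0.05) in red and the median as a bar. C-178+CMA against C-178 has 24 called genes and the highest median (0.51), and C-178 against no stimulation has none and the lowest (-0.19).

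C-178+CMA was set against CMA to ask what the inhibitor did to agonist-treated cells. Of 78 members, 3 rose and 0 fell, where 10.6% of all tested genes rose and 13.5% fell. Non-overlap was seen for 13 members in the higher and 1 in the lower direction, against 17.0% and 18.5% of all genes. The median log2 change was 0.27 over members, 67 of them positive, and 0.00 over all genes. With the trend on length and GC content removed the median was 0.01 (40 positive). Then 2 members rose and 5 fell (2.56% and 6.41%, against 8.95% and 10.8% of all), so the direction of the calls depended on that choice. The comparison shares its C-178+CMA libraries with the one above.

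Rpl9 had 3359, 2357 and 2860 normalised counts with C-178+CMA, against 1882, 1828 and 1878 with CMA. All 3 C-178+CMA libraries were higher, at a log2 change of 0.60 ± 0.15 (SE, limma, adjusted p = 0.0125). Rpl7l1, a relative of Rpl7 that acts in ribosome assembly, had 1040, 758.2 and 898.4 with C-178+CMA, against 665.9, 633.6 and 734.2 with CMA (log2 change 0.40 ± 0.13, limma adjusted p = 0.0442). Rpl18 had 2290, 682.5 and 1080, against 700.5, 604 and 583.7 with CMA, which overlap (log2 change 0.92 ± 0.31, adjusted p = 0.0475). Rpl7l1 and Rpl18 were no longer called without library 1 of C-178+CMA, whereas Rpl9 was. Rpl9 was lost without CMA library 2, when 0 members were called. Without C-178+CMA library 2 the count was 24 (30.8%, against 19.0% of all tested genes). No member was called without both number 1 libraries or in a fit of these 2 groups alone, where 6.83% and 2.28% of all tested genes rose. In the fit with the library number as a block, 7 were called (8.97%, against 8.63% of all tested genes), 2 of them among the 3. Residuals of same-numbered libraries of these groups correlated at -0.14, 0.18 and -0.16 over tested genes. Rpl23 stood out in the lower direction with 5048, 11680 and 10070, against 14850, 11860 and 12330 with CMA, without overlap but not called (log2 change -0.62 ± 0.29, adjusted p = 0.123).

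**Figure D5:**
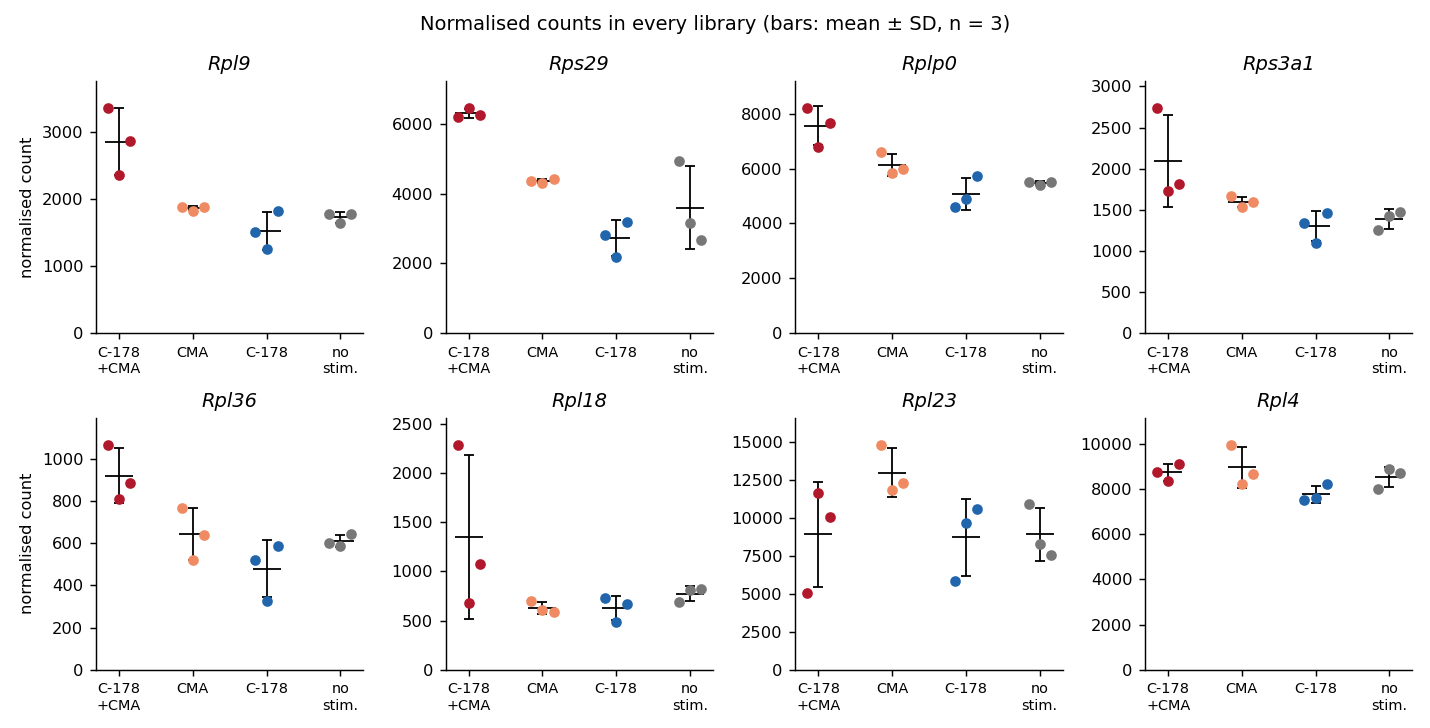
Normalised counts of 8 members in every library, with C-178+CMA, CMA, C-178 and no stimulation from left to right (bars are mean ± SD, n = 3). The 3 C-178+CMA points of Rpl9, Rps29 and Rplp0 lie above all points of the other groups, whereas Rpl18 overlaps and Rpl23 has its lowest value in C-178+CMA library 1.

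Against no stimulation, C-178+CMA raised 4 members and lowered 0, where 11.1% of all tested genes rose and 10.5% fell. The groups did not overlap for 12 members in the higher and 1 in the lower direction, against 16.9% and 17.6% of all genes. The median log2 change was 0.31 (71 of 78 positive) and fell to 0.10 without library 1 of C-178+CMA, when 3 of the 4 were still called. Without unstimulated library a 2 members were called (2.56%, against 7.77% of all), and without C-178+CMA library 2 there were 21 (26.9%, against 14.6% of all). With the trend on length and GC content removed, 3 rose and 2 fell (3.85% and 2.56%, against 13.7% and 12.1% of all). Rps29 had 6214, 6466 and 6266 with C-178+CMA, against 4944, 3165 and 2684 without stimulation (log2 change 0.86 ± 0.19, limma adjusted p = 0.00527). Rpl9 had 1783, 1637 and 1773 without stimulation, all under the 2357 of its lowest C-178+CMA library (log2 change 0.71 ± 0.15, adjusted p = 0.00364). Rplp0 had 5521, 5390 and 5527 without stimulation, under the 6804 of its lowest C-178+CMA library (log2 change 0.46 ± 0.12, adjusted p = 0.0136). Rps3a1 had 1251, 1428 and 1475 without stimulation, against 1725 at least with C-178+CMA (log2 change 0.56 ± 0.17, adjusted p = 0.027). These 4 genes thus stood at their highest in all 3 C-178+CMA libraries. Of 24 alternatives, the call of Rpl9 was lost under 0 and that of Rps29 under 1. For Rplp0 it was lost under 4, among them that without unstimulated library a (log2 change 0.16 at the lowest). The call of Rps3a1 was lost under 8, among them those without library 1 of C-178+CMA or any unstimulated library. Rps27 was again the non-overlapping lower member, with 10.2 to 13.3 without stimulation (log2 change -0.77 ± 0.43, adjusted p = 0.226).

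The interaction asks whether the CMA effect differed with and without C-178. It was called for 1 member, Rpl9, where 3.95% of all tested genes were called in the positive direction and 5.99% in the negative. The log2 effect of CMA on Rpl9 was 0.91 with C-178 and 0.11 ± 0.15 without it, and the difference was 0.80 ± 0.21 (SE, limma, adjusted p = 0.0334). Over the 78 members the median difference was 0.46, with 72 positive. With unadjusted p under 0.05 there were 19 positive and 0 negative, a cut for which no share of all genes was taken. The call of Rpl9 was lost when library 1 of C-178+CMA, library 2 of C-178, any CMA library or any unstimulated library was left out. Without library 1 of C-178+CMA the median was 0.32 and 0 members were called. Without library 2 of C-178+CMA 24 were called positive (30.8%, against 14.7% of all tested genes). With the trend on length and GC content removed Rps20 alone was called positive and 2 members negative, with a median of 0.12. These are 1.28% and 2.56% of members, against 2.5% and 3.89% of all. Rps29 missed the threshold with 0.90 ± 0.27 (adjusted p = 0.0525).

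CMA alone against no stimulation moved 0 of 78 members in either direction by limma, where 19.4% of all tested genes rose and 17.9% fell. With unadjusted p under 0.05 there was 1 higher and 0 lower, a cut for which no share of all genes was taken. On the recovered reads edgeR and DESeq2 called 0 members as well, where 19.5% and 20.6% of all tested genes were higher. The groups did not overlap for 12 members in the higher and 5 in the lower direction, against 31.0% and 30.9% of all genes. The median log2 change was 0.05. Under quantile normalisation it was -0.25 with 7 members lower (8.97%, against 23.3% of all tested genes) and 0 higher. With the trend on length and GC content removed it was 0.09 with 8 higher (10.3%, against 21.5% of all) and 0 lower. Both shares were below those of all genes, and the direction of any call depended on the scaling. The fit shares its spread over all 12 libraries, including the wide C-178+CMA group. In a fit of these 2 groups alone, 6 members rose and 9 fell (7.69% and 11.5%, against 27.9% and 26.9% of all tested genes).

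Rpl23 had 14850, 11860 and 12330 normalised counts with CMA, against 10920, 8328 and 7600 without stimulation (log2 change 0.55 ± 0.29, limma adjusted p = 0.151). Rpl37 had 3151, 2276 and 2537, against 2100, 2037 and 1993 without stimulation (0.36 ± 0.15, adjusted p = 0.0781). Rps15a had 2790, 2222 and 2349, against 1821, 2019 and 2040 without stimulation (0.32 ± 0.19, adjusted p = 0.206). The CMA libraries of these 3 genes were above all unstimulated ones. In the other direction, Rpl13 had 751.6, 708.6 and 690.1 with CMA, against 827.9, 1015 and 849.7 without stimulation (-0.32 ± 0.31, adjusted p = 0.447). Rpl10a (-0.30 ± 0.21, adjusted p = 0.301) and Rps19, a gene mutated in Diamond-Blackfan anaemia in humans (-0.27 ± 0.25, adjusted p = 0.439), likewise did not overlap. All of these 6 were among the 15 called in the fit of these 2 groups alone.

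C-178 alone against no stimulation moved 0 of 78 members by limma, where 0.0962% of all tested genes rose and 0.0% fell, and 0 by edgeR and DESeq2. With unadjusted p under 0.05 there were 0 higher and 3 lower, a cut for which no share of all genes was taken. The groups did not overlap for 0 members in the higher and 7 in the lower direction, against 7.87% and 7.68% of all genes. The median log2 change was -0.19 with 1 of 78 positive, against -0.01 over all genes, and it was -0.09 with 14 positive without C-178 library 2. Rps20 had 1927, 1623 and 2254 with C-178, against 2990, 2506 and 2429 without stimulation (log2 change -0.46 ± 0.16, adjusted p = 1.0). Rps16 had 801.4, 495.4 and 725, against 847.6, 889.7 and 938.3 without stimulation (-0.43 ± 0.20), and Rps19 had 1421, 790.5 and 1148, against 1432, 1470 and 1464 without stimulation (-0.42 ± 0.25). In all 3 genes library 2 was the lowest of the C-178 group. Library 2 of C-178 was the lowest of its group for 59 of the 78 members. This was not particular to C-178, since library 2 was the lowest for 60 members in CMA and 57 in C-178+CMA. Unstimulated library 1 was the lowest for 53, and the share over all tested genes was not taken.

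Of the paralogs that pass the filter, Rps27l, a p53 target and relative of Rps27, had 734.7, 254.2 and 414.1 normalised counts with C-178+CMA, 247.2, 217.1 and 218.4 with CMA, 400.9, 218.3 and 241.2 with C-178 and 229.6, 313.5 and 377.7 without stimulation. Its C-178+CMA libraries were above all CMA libraries but the change was not called (log2 change 0.90 ± 0.32, limma adjusted p = 0.0567). Rpl22l1 had 246.7, 65.7 and 39.7 with C-178+CMA, 56, 27.6 and 69.8 with CMA, 49.1, 33.1 and 33.4 with C-178 and 70.7, 40 and 57.6 without stimulation. Only library 1 of C-178+CMA was high, and no comparison was called. Its partner Rpl22 had 1962, 1025 and 1140 with C-178+CMA and 951.6 to 1278 in the other 9 libraries. Rps4l stayed between 16.6 and 28 in all libraries and was called in no comparison.

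Ribosomal proteins whose symbols the naming rule misses were checked alongside. Rpl36al, a second gene for the Rpl36a protein family, had 376, 279.9 and 440.1 normalised counts with C-178+CMA, 225.8, 217.1 and 220.3 with CMA, 169.6, 165.6 and 223.8 with C-178 and 249.4, 201.2 and 179 without stimulation. All C-178+CMA libraries were the highest, and Rpl36al rose against CMA (log2 change 0.70 ± 0.19, limma adjusted p = 0.0173), C-178 (0.96 ± 0.19, adjusted p = 0.00191) and no stimulation (0.79 ± 0.19, adjusted p = 0.00765). Gnb2l1, the older symbol of Rack1, a scaffold on the small subunit, rose against C-178 (0.65 ± 0.17, adjusted p = 0.0126). Without library 1 of C-178+CMA both Rpl36al and Gnb2l1 rose against C-178, and without C-178 library 2 Rpl36al did and Gnb2l1 did not pass the test. Fau, which encodes Rps30 in fusion with a ubiquitin-like protein, was not called (0.39 ± 0.29, adjusted p = 0.344).

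The nuclear genes for mitochondrial ribosomal proteins form a separate set of 77 tested genes. Against C-178, C-178+CMA raised 20 and lowered 0, with a median log2 change of 0.41, where 13.5% of all tested genes rose. The count was 14 without library 1 of C-178+CMA and 2 without library 2 of C-178, where 12.1% and 9.23% of all tested genes rose. Against CMA, C-178+CMA raised 10 and lowered 1 (median 0.32), where 10.6% and 13.5% of all tested genes were called. Without library 1 of C-178+CMA it raised 6 and lowered 0, where 7.34% and 10.6% were called. Against no stimulation it raised 5 and lowered 0 (median 0.25), where 11.1% and 10.5% were called. Mrpl30 averaged 421.3 ± 154.5 normalised counts with C-178+CMA and 205.3 ± 45.9 without stimulation (SD, n = 3 each, log2 change 0.99 ± 0.27, limma adjusted p = 0.0188), and against C-178 its log2 change was 1.20 ± 0.27 (adjusted p = 0.0055). Mrps11 averaged 130.6 ± 35.5 with C-178+CMA and 65.7 ± 2.86 with CMA (SD, n = 3 each, log2 change 0.94 ± 0.21, adjusted p = 0.00724). CMA alone raised 2 and lowered 6 of these 77 genes, where 19.4% and 17.9% of all tested genes were called.

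Genes that build and control ribosomes were read from the same fit. Of 72 ribosome biogenesis genes, CMA raised 14 and lowered 7 against no stimulation (median log2 change 0.11), where 19.4% of all tested genes rose and 17.9% fell. Wdr43, of the small-subunit processome, averaged 1764 ± 89.1 normalised counts with CMA and 548.6 ± 18 without stimulation (SD, n = 3 each, log2 change 1.68, limma adjusted p = 3.15e-07). Noc4l, also of that particle, averaged 725.8 ± 110.6 with CMA and 161 ± 5.46 without (log2 change 2.16, adjusted p = 1.01e-06), and Nol10 and Nop58 rose by 1.10 and 0.86. C-178+CMA against CMA raised 6 and lowered 10 of the 72, where 10.6% of all tested genes rose and 13.5% fell. Without library 1 of C-178+CMA the counts were 5 and 5, where 7.34% of all rose and 10.6% fell. In the main fit Noc4l (-0.93, adjusted p = 0.00509) and Nop58 (-0.77, adjusted p = 0.00474) were among the lower genes. Pes1 was among the higher ones (0.55, adjusted p = 0.00377). Myc, a driver of ribosome biogenesis, averaged 35.5 ± 16.3 with C-178+CMA and 161.5 ± 26.3 without stimulation (log2 change -2.23, adjusted p = 3.41e-05).

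Of 34 genes of mTORC1 signalling and TOP mRNA control, CMA raised 7 and lowered 9 against no stimulation (median log2 change -0.09), where 19.4% of all tested genes rose and 17.9% fell. Sesn1, an inhibitor of mTORC1 activation, averaged 349.9 ± 47.9 normalised counts with CMA and 4715 ± 151.2 without stimulation (SD, n = 3 each, log2 change -3.76, limma adjusted p = 7.59e-10). With C-178+CMA it averaged 961.4 ± 237.2, above CMA (log2 change 1.44, adjusted p = 8.13e-05), and the interaction was called (1.82 ± 0.23, adjusted p = 0.000753). Larp1, which binds TOP mRNAs, averaged 5309 ± 384 with CMA and 1271 ± 76 without (log2 change 2.06, adjusted p = 1.93e-06), while Ddit4 and Eif4ebp2, inhibitors of mTORC1 signalling and of cap-dependent initiation, changed by -2.55 and -0.94. Of the 34, 0 were called for C-178 against no stimulation.

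Translation factors were read in the same way. Of 29 initiation factor genes, CMA raised 4 and lowered 1 against no stimulation, where 19.4% of all tested genes rose and 17.9% fell. Eif2s1 stood at 2247 ± 186 with CMA and 1178 ± 121.8 without (SD, n = 3 each, log2 change 0.93, limma adjusted p = 0.000143). C-178+CMA raised 6 and lowered 3 of the 29 against C-178, where 13.5% of all tested genes rose and 12.6% fell. Without library 1 of C-178+CMA the counts were 4 and 2, where 12.1% rose and 11.4% fell. Of 21 elongation factor and other TOP genes, CMA raised 1 and lowered 1. The gene that rose was Pabpc1, the cytoplasmic poly(A) binding protein, which averaged 28100 ± 1953 with CMA and 14610 ± 704.8 without (log2 change 0.94, adjusted p = 0.00985). C-178+CMA against C-178 raised 3 of the 21, among them Btf3 (0.43, adjusted p = 0.0239) and Eef1d (0.48, adjusted p = 0.0422), and lowered 2. Without library 1 of C-178+CMA these counts were 1 and 2, and without C-178 library 2 both were 0. In the fit without C-178 library 2, 9.23% of all tested genes rose and 7.74% fell.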

How the data were processed

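Messenger RNA of 12 macrophage libraries was analysed from the table of normalised counts (a signal per gene and library) that the authors deposited. The submitters' processing notes name the build mm10 and the tools Bowtie2 2.2.1 and limma 3.18.13, without their steps. How reads were counted, also where they match several places or strands, the sources used here do not give. Column names resemble DESeq2 output, so the deposited signal was taken as reads divided by a size factor per library, which the authors do not state. Dividing by the value of 1 read made 100% of values whole (within 0.01), and these recovered reads served as depth and for the edgeR 4.0.16 and DESeq2 1.42.0 alternatives. Cook's distances (12 columns) stayed unused.

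Entries above 10 in at least 3 libraries (11440) were tested as log2 of value + 1, so fold changes of low genes are understated. The fit was lmFit and eBayes with a trend in limma 3.58.1 (R 4.3.3) over all 12 libraries, with Benjamini-Hochberg adjustment over all tested genes of a comparison and calls under 0.05. It was tested on simulated data. The 6 comparisons share groups. The precision of a level is limited by the 7.049 to 36.438 M reads of a library. Tables and plots were made in Python 3.11.15 (numpy 2.4.6, pandas 2.3.3, matplotlib 3.10.9).

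The members, gene lists and tests were chosen with earlier results of these data known. Named members were those called (at most 10 a direction), the 3 largest non-overlapping changes where fewer than 3 were called, the level extremes, the most and least variable, the paralogs and a fixed set. Others from each list were up to 4 with the smallest adjusted p. The windows shown, and the values of Rpl37a, Rps10, Rpl28 and Rpl4, were picked after values were seen. Coordinates, transcript lengths and GC content come from GENCODE M21, which matched 23657 of 24062 entries, and promoters from RefSeq. Results for some genes are not reported here. Same-numbered C-178+CMA and C-178 libraries had residuals that correlate at 0.45, 0.43 and 0.26 over tested genes. For C-178+CMA and CMA these correlations were -0.14, 0.18 and -0.16. The labels do not say what equal numbers share, so the number served as a block only in an alternative fit. Pairing cannot be told apart from the greater depth that the number 1 libraries of C-178+CMA and C-178 share. Alternatives changed the pseudocount, filter, scaling, tool, depth, length and GC trend, libraries fitted and replicate block.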

Additional observations from a re-analysis of the deposited data

Results flagged for a closer look

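The effect of CMA on Rpl9 was larger with C-178 than without it, and this difference between the 2 settings passed the test of the interaction. It was 0.80 on the log2 scale (SE 0.21, limma, Benjamini-Hochberg adjusted p = 0.0334), with values of 3359, 2357 and 2860 normalised counts in the C-178+CMA libraries, 1882, 1828 and 1878 in the CMA libraries, 1506, 1248 and 1818 in the C-178 libraries and 1783, 1637 and 1773 in the unstimulated ones. The direction was positive under all 23 alternatives (0.50 to 0.95), with adjusted p of 0.00436 to 0.0914, and the call was lost under 10 of them. Groups of 3 are too small for a test of outlying libraries.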

How the results depend on the processing

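Both the counts of called members and, for CMA against no stimulation, C-178+CMA against CMA and the interaction, the direction of calls depended on the processing. Leaving out 1 library in turn gave, for members called higher, 0 to 24 for C-178+CMA against CMA (0 without CMA library 2, 24 without C-178+CMA library 2), 7 to 53 against C-178 (7 without C-178 library 2, 53 without C-178+CMA library 2), 2 to 21 against no stimulation (2 without unstimulated library a, 21 without C-178+CMA library 2), 0 to 24 for the interaction and 0 to 1 for CMA against no stimulation, and for those called lower 0 to 1, 0 to 1, 0 to 2, 0 and 0. For C-178 against no stimulation both counts were 0. Where members gave 24, 53, 21 and 24 higher, 19.0%, 18.5%, 14.6% and 14.7% of all tested genes were higher. Where they gave 0, 7 and 2 in the first 3 comparisons, the shares of all were 5.22%, 9.23% and 7.77%. In fits with 1 or 2 members called lower, 10.9% to 22.1% of all were lower. The medians ranged from 0.10 to 0.42, 0.32 to 0.65, 0.10 to 0.45, 0.32 to 0.60, -0.03 to 0.11 and, for C-178, -0.27 to -0.09.

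The cause of the following shifts was not tested. Quantile normalisation gave 7 lower and a median of -0.25 for CMA against no stimulation (Rpl23 -0.10, Rps15a -0.00), 6 higher for C-178+CMA against CMA, 9 higher against C-178, 1 higher and 1 lower against no stimulation and 4 higher for the interaction, with library medians of -0.09, -0.37 and -0.29 for CMA libraries 1 to 3. Of all tested genes, 23.3% were then lower for CMA, and 12.3%, 11.8%, 10.2% and 4.5% higher in the others, in that order. Against no stimulation 14.1% of all were lower. TMM put CMA library 3 at -0.01 and the interaction at 2 (2.56%, against 4.17% of all). Removing the length and GC trend gave 8 higher for CMA (Rps19 0.19), 5 lower and a median of 0.01 for C-178+CMA against CMA, 6 higher, 1 lower and 0.21 against C-178, 2 lower against no stimulation, 2 lower and 0.12 for the interaction, and library medians of -0.18 for C-178 library 2, 0.06 for CMA library 2, and 0.05 and -0.19 for C-178+CMA libraries 2 and 3. With that trend removed, 21.5% of all tested genes were higher for CMA and 10.8% lower for C-178+CMA against CMA. Against C-178 14.6% were higher and 12.4% lower, against no stimulation 12.1% lower, and 3.89% were negative for the interaction. Fits of only the 2 groups compared gave 6 higher and 9 lower for CMA, 0 higher for C-178+CMA against CMA and 3 higher against C-178. Of all tested genes these fits called 27.9% and 26.9%, 2.28% and 6.45%.

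For C-178+CMA against CMA, C-178 and no stimulation and the interaction, DESeq2 on recovered reads called 8, 38, 14 and 6 members higher. Against CMA, against no stimulation and for the interaction, that was 10.3%, 17.9% and 7.69% of members. Of all tested genes, 12.4%, 14.2% and 6.7% were then higher. Against C-178 it was 48.7% of members, where 1836 of all 11440 tested genes were higher. With edgeR there were 6 against CMA, 32 against C-178, 8 against no stimulation and 2 for the interaction. These are 7.69%, 41.0%, 10.3% and 2.56% of members, against 11.8%, 15.2%, 13.2% and 4.73% of all tested genes. The unfiltered table gave 1 against CMA (1.28%, against 6.04% of all). A pseudocount of 10, a filter of 50 and thinned reads each gave 2 for the interaction, where 4.2%, 4.91% and 3.48% of all were positive. Without both number 1 libraries, an alternative chosen after seeing the data, the higher counts were 1 for CMA, 0 against CMA, 10 against C-178 and 0 for the interaction. The replicate block over the 9 treated libraries gave 7 higher against CMA and 29 against C-178, where 8.63% and 12.2% of all were higher. No paired analysis was possible for comparisons with unstimulated libraries because 2 of their columns share a heading.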
